A study of Mus musculus with 8 samples.

Results

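The genes described here encode enzymes of triglyceride synthesis, the pathway that joins fatty acids to a glycerol backbone. They are Gpam, Agpat2, Agpat3, Lpin1, Lpin2, Mogat1, Dgat1 and Dgat2, chosen by name with earlier results of these data known. Because of that choice, counts of these genes beside shares of all genes are descriptions and not tests of the set. Every probe set that the array's annotation pairs with a single gene of the set was taken. Of these 8 genes 7 had a probe set and all 7 passed the filter on low values, out of 9294 genes tested in all. Agpat2 was not analysed here. The 7 genes had 12 probe sets among the 22690 of the array, and none of the 12 was shared with another gene.

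In the glycerol phosphate pathway, Gpam (mitochondrial glycerol-3-phosphate acyltransferase) adds the first fatty acid to glycerol 3-phosphate, AGPAT enzymes add the next to give phosphatidic acid, lipins remove the phosphate to give diacylglycerol, and the DGAT enzymes add the last fatty acid. Mogat1 reaches diacylglycerol by another route, from monoacylglycerol. Dgat1 and Dgat2 catalyse the same final reaction but are unrelated in sequence, and in white fat this pathway makes the triglyceride of the lipid droplet. Rosiglitazone is a thiazolidinedione drug that activates PPARγ, the nuclear receptor that drives fat cell differentiation, and PRDM16 is a co-regulator of brown fat genes.

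RNA came from adipocytes differentiated in culture from stromal-vascular (SV) cells of inguinal white fat of male C57BL/6J mice. The 4 groups were sh-PRDM16 cells with 1 µM rosiglitazone, sh-PRDM16 cells without it, sh-scr cells (a control shRNA) with 1 µM rosiglitazone and sh-scr cells without it, with 2 arrays each. The labels give no age of the mice, no vector and no clone. They call the replicates biological without naming cultures or animals, so the p-values here reflect array-to-array spread, which may be technical. All groups consist of differentiated cells carrying an shRNA, and no undifferentiated or unmodified cells were compared. The series asks how a PPARγ agonist acts through PRDM16.

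Intensities were linear, one value per probe set and array, and a gene was read from its probe set with the highest mean. Replicate arrays correlated across probe sets at r = 0.991 in each of the 4 groups. Prdm16 RNA was not analysed here, as the annotation names no probe set for it, and the knockdown was therefore taken from the labels without a check. Changes are differences of log2(intensity + 16) from limma, with p-values adjusted over all genes tested and a threshold of 0.05, and this scale understates the change of dim genes. The deposited arrays were not on one level: the median change of all genes was 0.0026 for rosiglitazone in sh-PRDM16 cells, -0.31 for rosiglitazone in sh-scr cells, 0.15 for sh-PRDM16 over sh-scr with rosiglitazone and -0.16 without it. Values on arrays centred on their medians are therefore given for most changes of the 7 genes. Elsewhere they are given for some of the calls that centring changed, so a call without a centred value may differ on centred arrays. For rosiglitazone in sh-scr cells, the deposited scale gave 483 genes up and 2991 down, against 1322 and 1103 on centred arrays. For sh-PRDM16 over sh-scr without rosiglitazone the counts were 185 and 1439, against 818 and 1170. With rosiglitazone they were 981 and 429, against 1146 and 1141. For rosiglitazone in sh-PRDM16 cells they were 937 and 308, against 1347 and 917.

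Promoter sequences are shown for Agpat3 and Lpin1, whose RNA rose with rosiglitazone in both lines, and for Gpam, whose RNA did not. They are the 250 bases before an annotated start, from RefSeq on GRCm38.p6, written 5′ to 3′ on the gene's strand, which is the minus strand for all 3 genes. The Agpat3 window is chr10:78351701-78351950, the Lpin1 window chr12:16610967-16611216, and the Gpam windows, from different annotated starts, are chr19:55127239-55127488 and chr19:55099478-55099727. All these starts lie inside the loci given below. A window before the outer end of each locus is not shown. Capitals mark matches to the motifs searched.
Agpat3: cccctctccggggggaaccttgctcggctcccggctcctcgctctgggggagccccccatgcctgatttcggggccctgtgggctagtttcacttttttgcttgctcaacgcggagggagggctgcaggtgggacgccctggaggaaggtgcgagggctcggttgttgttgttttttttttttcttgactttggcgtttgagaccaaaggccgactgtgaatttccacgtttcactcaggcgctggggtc
Lpin1: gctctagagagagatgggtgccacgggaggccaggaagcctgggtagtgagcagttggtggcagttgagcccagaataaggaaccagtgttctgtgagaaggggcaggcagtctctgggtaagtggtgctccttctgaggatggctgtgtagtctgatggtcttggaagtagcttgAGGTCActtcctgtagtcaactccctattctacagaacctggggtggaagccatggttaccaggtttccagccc
Gpam, upstream start: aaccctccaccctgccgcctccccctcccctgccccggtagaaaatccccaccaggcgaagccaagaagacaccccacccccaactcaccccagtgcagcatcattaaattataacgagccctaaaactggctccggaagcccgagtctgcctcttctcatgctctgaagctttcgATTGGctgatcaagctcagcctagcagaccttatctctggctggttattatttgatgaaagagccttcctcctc
Gpam, downstream start: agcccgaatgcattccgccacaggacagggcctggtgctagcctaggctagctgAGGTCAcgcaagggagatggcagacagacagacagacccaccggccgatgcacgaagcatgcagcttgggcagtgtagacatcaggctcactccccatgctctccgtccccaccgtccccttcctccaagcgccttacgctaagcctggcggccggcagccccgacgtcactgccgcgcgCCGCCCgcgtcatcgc
The motifs searched on both strands were AGGTCA (the hexamer bound by nuclear receptors), CCAAT (the CCAAT box), GGGCGG (the GC box), CACGTG (the E-box) and TATAAA (the TATA box), and no match overlapped another in the windows shown. Of 32851 promoter windows of this length, 14.0% held AGGTCA, 33.9% CCAAT, 32.7% GGGCGG, 6.02% CACGTG and 12.4% TATAAA. In Lpin1, AGGTCA began 74 bases before the start. In the downstream Gpam window, AGGTCA began 196 bases before the start and a match to GGGCGG on the opposite strand 16 bases before it. In the upstream Gpam window, CCAAT on the opposite strand, which reads ATTGG here, began 74 bases before the start. The Agpat3 window held none of these letters. The table held 9 windows for 6 of the 8 genes. A match is a description of the letters, not a binding site.

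Rosiglitazone raised Agpat3, Lpin1 and Dgat1 in both lines, and lowered Dgat2 in sh-scr cells. In sh-PRDM16 cells Agpat3, Lpin1, Mogat1 and Dgat1 rose, 4 of the 7 genes, where 10.1% of all genes rose and 3.31% fell, and the other 3 did not pass (Mogat1 did not pass on centred arrays, where Dgat2 rose). In sh-scr cells Agpat3, Lpin1 and Dgat1 rose, 3 of 7 against 5.2% of all genes, while Gpam and Dgat2 fell, 2 of 7 against 32.2% of all genes. On centred arrays Agpat3, Lpin1 and Dgat1 again rose there, 3 of 7 against 14.2% of all genes, and of the 2 that fell Dgat2 was the one still past the threshold, against 11.9%. Cells with sh-PRDM16 had lower RNA of most of these genes: without rosiglitazone 6 of 7 fell, against 15.5% of all genes. That count was 3 without untreated sh-scr replicate 2, where Gpam, Agpat3 and Dgat1 did not pass. With rosiglitazone Lpin1 and Mogat1 fell, 2 of 7 against 4.62%, while Dgat2 rose, 1 of 7 against 10.6%. On centred arrays the other 4 genes also fell with rosiglitazone, so that 6 of 7 fell, against 12.3% of all genes, and 1 rose, against 12.3%. The response to rosiglitazone differed between the lines for Dgat2, 1 of 7 genes, where 0.603% of all genes had a response that was higher in sh-PRDM16 cells by that test.

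**Figure D1:**
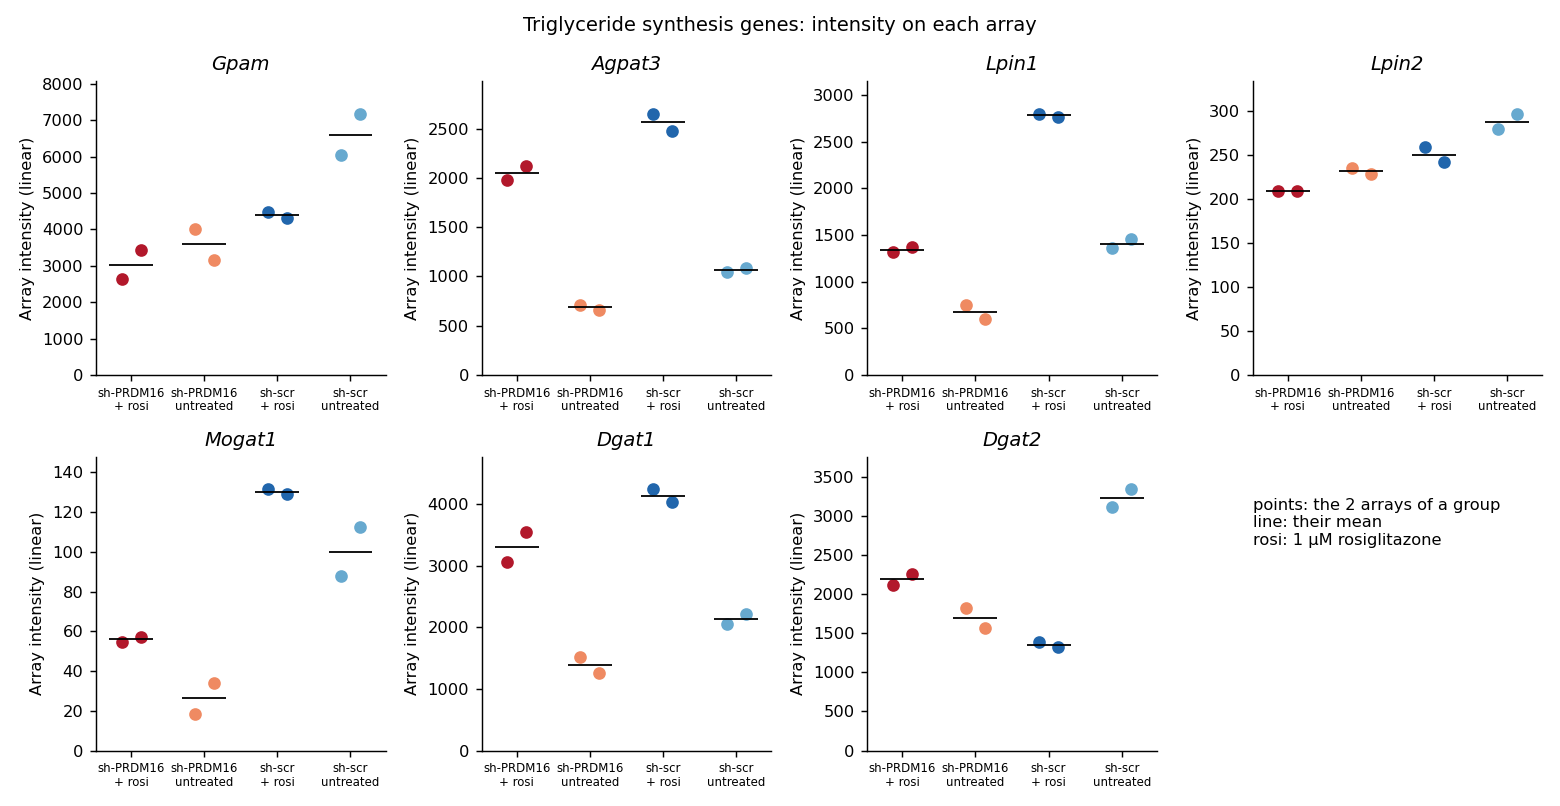
Linear array intensity (vertical axes from 0) of the probe set that represents each gene, with the 2 arrays of each group as points and their mean as a line. Agpat3, Lpin1 and Dgat1 are high on both treated groups relative to their untreated groups, and Dgat2 is lowest on the treated sh-scr arrays (1383.1 and 1328.4) and highest on the untreated sh-scr arrays (3113.8 and 3339.3).

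Gpam catalyses the first step, and lies at chr19:55067635-55127319 (GRCm38.p6). Its intensity was 2633.3 and 3429.2 on treated sh-PRDM16 arrays and 4015.0 and 3169.2 on untreated sh-PRDM16 arrays. It was 4468.9 and 4316.7 on treated sh-scr arrays and 6034.3 and 7181.5 on untreated sh-scr arrays. The untreated sh-scr arrays were above all others, and the sh-PRDM16 groups overlapped. Without rosiglitazone, Gpam was lower in sh-PRDM16 cells by a log2 change of -0.88 (SE 0.18, adjusted p = 0.00953, -0.70 on centred arrays), a call lost without untreated sh-scr replicate 2 (adjusted p = 0.0688) or untreated sh-PRDM16 replicate 2 (adjusted p = 0.0761). With rosiglitazone the change was -0.55 (adjusted p = 0.0669), and -0.67 on centred arrays, where it passed (adjusted p = 0.00987). Rosiglitazone gave -0.25 in sh-PRDM16 cells (adjusted p = 0.424) and -0.58 in sh-scr cells (adjusted p = 0.0312). The fall in sh-scr cells did not pass on centred arrays (-0.29, adjusted p = 0.108), and was lost when any one sh-scr array was left out, at -0.71 to -0.46 with adjusted p of up to 0.169. A dim Gpam probe set, 1425834_a_at, read 29.3 to 71.2 over the 8 arrays and passed in no comparison.

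Agpat3, one of the acyltransferases that make phosphatidic acid, lies at chr10:78269174-78352497. It had an intensity of 1975.7 and 2123.1 on treated sh-PRDM16 arrays, against 713.5 and 663.7 on untreated ones. In sh-scr cells it had 2653.2 and 2480.9 with rosiglitazone, against 1040.4 and 1085.6 without it. In both lines every treated array was above every untreated array, and within each treatment the sh-PRDM16 arrays were below the sh-scr arrays. Rosiglitazone raised Agpat3 in sh-PRDM16 cells by 1.55 on the log2 scale (SE 0.13, adjusted p = 6.63e-05), a fold of 2.93, and by 1.26 in sh-scr cells (SE 0.13, adjusted p = 0.000357), a fold of 2.39. On centred arrays these changes were 1.53 and 1.55. The difference of these responses was 0.29 (95% interval -0.11 to 0.69, adjusted p = 0.285) and -0.018 on centred arrays. Without rosiglitazone Agpat3 fell in sh-PRDM16 cells relative to sh-scr cells (log2 -0.62, adjusted p = 0.0102), but did not pass without untreated sh-scr replicate 2 (adjusted p = 0.0925). With rosiglitazone the change was -0.32 (adjusted p = 0.107), and on centred arrays -0.45 (adjusted p = 0.00697).

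Lpin1 encodes lipin 1, a phosphatidic acid phosphatase that also acts as a transcriptional co-regulator, and lies at chr12:16535669-16653903. Its intensity was 1313.6 and 1373.5 on treated sh-PRDM16 arrays, against 753.3 and 604.4 on untreated ones. In sh-scr cells it was 2801.1 and 2769.1 with rosiglitazone, against 1357.3 and 1459.0 without it. The treated sh-PRDM16 arrays reached about the level of the untreated sh-scr arrays, and these 2 groups overlapped. The rosiglitazone response was a log2 change of 0.98 in sh-PRDM16 cells (SE 0.14, adjusted p = 0.00191) and 0.98 in sh-scr cells (SE 0.14, adjusted p = 0.00204), or 0.96 and 1.27 on centred arrays. The difference of the responses was -0.00045, with a 95% interval of -0.45 to 0.45, and -0.31 on centred arrays (adjusted p = 0.293). Lpin1 fell in sh-PRDM16 cells relative to sh-scr cells by 1.04 on the log2 scale both with rosiglitazone (adjusted p = 0.00226) and without it (adjusted p = 0.00138), and on centred arrays the changes were -1.17 and -0.86. Its other probe set, 1418288_at, read 922.6 and 967.2 on treated and 498.9 and 463.3 on untreated sh-PRDM16 arrays, and 2122.4 and 1938.9 on treated and 877.1 and 1048.2 on untreated sh-scr arrays. It passed in the same 4 comparisons and in the same directions, with changes of 0.95 and 1.07 for rosiglitazone in sh-PRDM16 and sh-scr cells.

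Lpin2, a second lipin, lies at chr17:71183532-71249818. It read 208.9 and 209.8 on treated and 235.2 and 229.2 on untreated sh-PRDM16 arrays, and 259.1 and 242.7 on treated and 279.5 and 297.4 on untreated sh-scr arrays. The groups did not overlap, but the changes were small. They were -0.14 for rosiglitazone in sh-PRDM16 cells, -0.19 in sh-scr cells, -0.24 for sh-PRDM16 over sh-scr with rosiglitazone and -0.29 without it, with adjusted p from 0.132 to 0.523. On centred arrays the rosiglitazone change in sh-scr cells turned to 0.10 (adjusted p = 0.412), and Lpin2 fell in sh-PRDM16 cells relative to sh-scr cells with rosiglitazone (-0.37, adjusted p = 0.0246). Of its 2 dimmer probe sets, 1452837_at passed in no comparison. The other, 1460290_at, was lower in sh-PRDM16 cells without rosiglitazone, at 32.0 and 10.6 against 52.6 and 60.2 in sh-scr cells (log2 -1.02, adjusted p = 0.0427), but not on centred arrays (adjusted p = 0.0606).

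Mogat1, the monoacylglycerol acyltransferase, lies at chr1:78511060-78606964 and was dim. It read 54.6 and 57.3 on treated sh-PRDM16 arrays, against 18.5 and 34.1 on untreated ones. In sh-scr cells it read 131.4 and 129.0 with rosiglitazone, against 87.6 and 112.5 without it. Every sh-PRDM16 array was below every sh-scr array. Mogat1 fell in sh-PRDM16 cells relative to sh-scr cells, with a log2 change of -1.02 with rosiglitazone (SE 0.19, adjusted p = 0.00855) and -1.47 without it (SE 0.19, adjusted p = 0.000942), or -1.15 and -1.29 on centred arrays. Rosiglitazone raised it by 0.79 in sh-PRDM16 cells (adjusted p = 0.023), which did not pass on centred arrays (0.77, adjusted p = 0.0519) or, with adjusted p of up to 0.0945, when untreated sh-PRDM16 replicate 1 or either treated sh-PRDM16 array was left out. In sh-scr cells the change was 0.34 (adjusted p = 0.167). Without detection calls, low values such as these cannot be said to be absent.

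Dgat1 catalyses the final step and lies at chr15:76502012-76512021. It had an intensity of 3052.9 and 3547.5 on treated sh-PRDM16 arrays, against 1522.8 and 1263.4 on untreated ones. In sh-scr cells it had 4233.8 and 4025.2 with rosiglitazone, against 2044.1 and 2215.1 without it. The pattern was that of Agpat3: treated arrays were above untreated arrays in both lines, and sh-PRDM16 arrays below sh-scr arrays within each treatment. Rosiglitazone raised Dgat1 in sh-PRDM16 cells by 1.24 on the log2 scale (SE 0.15, adjusted p = 0.000577), a fold of 2.36, and by 0.95 in sh-scr cells (SE 0.15, adjusted p = 0.00269), a fold of 1.93. On centred arrays these changes were 1.22 and 1.24. The difference of the responses was 0.29 (95% interval -0.18 to 0.75), and -0.025 on centred arrays. Dgat1 fell in sh-PRDM16 cells relative to sh-scr cells without rosiglitazone (-0.61, adjusted p = 0.0201). That call was lost without untreated sh-scr replicate 1 (adjusted p = 0.0571) or 2 (adjusted p = 0.138), or untreated sh-PRDM16 replicate 2 (adjusted p = 0.103). With rosiglitazone the change was -0.33 (adjusted p = 0.15), and -0.45 on centred arrays, where it passed (adjusted p = 0.00766). Its probe set 1418295_s_at is of a kind that the array maker marks as able to match more than 1 transcript, and the annotation pairs it with Dgat1 alone.

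Dgat2, the other enzyme of the final step, lies at chr7:99153663-99182713. Its intensity was 2114.8 and 2259.8 on treated sh-PRDM16 arrays, against 1819.0 and 1562.3 on untreated ones. In sh-scr cells it was 1383.1 and 1328.4 with rosiglitazone, against 3113.8 and 3339.3 without it. The order of the groups, from high to low, was untreated sh-scr, treated sh-PRDM16, untreated sh-PRDM16 and treated sh-scr, and no neighbours in that order overlapped. In sh-PRDM16 cells the rosiglitazone change was 0.37 (SE 0.13, adjusted p = 0.101), and on centred arrays it passed as a rise of 0.35 (adjusted p = 0.00967). In sh-scr cells Dgat2 fell by 1.24 on the log2 scale (SE 0.13, adjusted p = 0.000529, -0.95 on centred arrays). The difference between these responses was 1.61 (SE 0.19, 95% interval 1.19 to 2.04, adjusted p = 0.00943), with the treated arrays of sh-PRDM16 cells above and those of sh-scr cells below their untreated arrays. On centred arrays it was 1.30 (adjusted p = 0.0216), where 0.0108% of all genes were called higher and 0.043% lower. The call was lost when untreated sh-PRDM16 replicate 2 was left out (1.50, adjusted p = 0.09) and when no gene was filtered out (adjusted p = 0.0562).

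Relative to sh-scr cells, Dgat2 therefore stood on opposite sides in the 2 treatments. With rosiglitazone it was higher in sh-PRDM16 cells, with a log2 change of 0.68 (SE 0.13, adjusted p = 0.0115, 0.56 on centred arrays), and without rosiglitazone it was lower, at -0.93 (SE 0.13, adjusted p = 0.00183, -0.74 on centred arrays). The rise with rosiglitazone did not pass without treated sh-scr replicate 2 (0.65, adjusted p = 0.0758) or without treated sh-PRDM16 replicate 2 (0.64, adjusted p = 0.0704). These comparisons share arrays with the rosiglitazone responses. A dimmer Dgat2 probe set, 1422677_at, read 883.0 and 914.3 on treated and 690.6 and 596.3 on untreated sh-PRDM16 arrays, and 721.7 and 585.3 on treated and 1112.6 and 1380.8 on untreated sh-scr arrays. Its changes had the same signs in all comparisons. In a fit of all probe sets its fall with rosiglitazone in sh-scr cells passed (-0.91, adjusted p = 0.00875), and the difference of the responses did not (1.39, adjusted p = 0.0697). In sh-PRDM16 over sh-scr cells its fall without rosiglitazone passed (-0.93, adjusted p = 0.00881). Its rise with rosiglitazone did not (0.46, adjusted p = 0.107, and 0.33 on centred arrays, adjusted p = 0.0868). In the same fit the difference of the responses passed for the probe set described first (adjusted p = 0.0264), but not on centred arrays (adjusted p = 0.052).

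**Figure D2:**
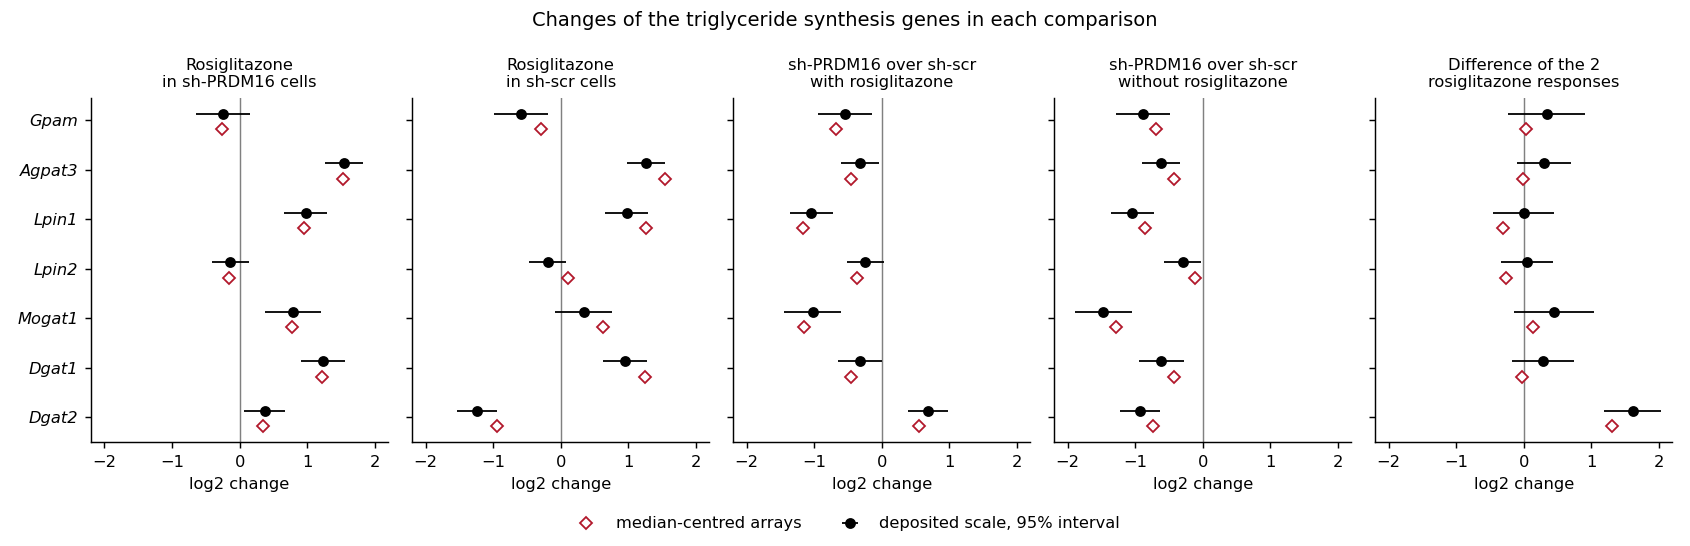
Log2 changes of the 7 genes in the 5 comparisons, with 95% intervals on the deposited scale (black points) and the change on median-centred arrays (open diamonds). In the right panel, the difference of the 2 responses, the interval of Dgat2 (1.19 to 2.04) lies above 0 and those of the other 6 genes include 0.

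The rosiglitazone responses were compared between the lines for each gene, and no arrays are shared between the responses. The difference, sh-PRDM16 minus sh-scr, had a median of 0.33 over all genes on the deposited scale, and 0.02 on centred arrays. Gpam (0.34), Agpat3 (0.29) and Dgat1 (0.29) lay near that median, Mogat1 was at 0.45, and Lpin2 (0.051) and Lpin1 lay below it, all with adjusted p of at least 0.274. Array-wide scale drops out when 2 genes are set against each other. The change of Dgat2 minus that of Dgat1 was -0.87 in sh-PRDM16 cells and -2.19 in sh-scr cells, and the change of Dgat2 minus that of Agpat3 was -1.18 in sh-PRDM16 cells and -2.50 in sh-scr cells. Against each of the other 6 genes, the difference of Dgat2 was higher in sh-PRDM16 cells, by 1.16 (against dim Mogat1) to 1.61. These contrasts between genes were not tested.

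**Figure D3:**
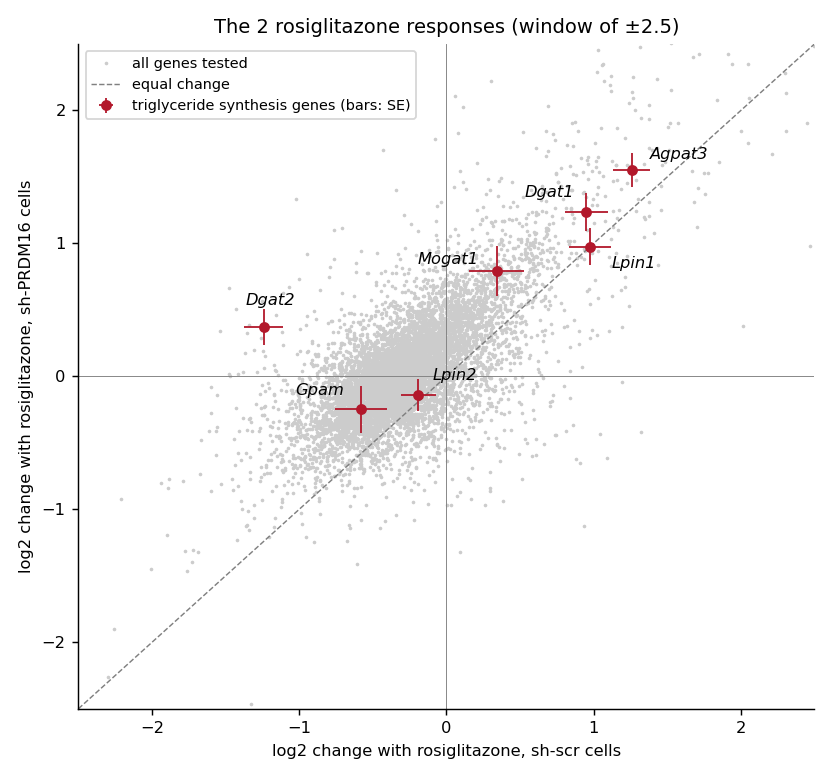
Log2 change with rosiglitazone in sh-PRDM16 cells (vertical) against that in sh-scr cells (horizontal) for all genes tested within a window of ±2.5 (grey) and the 7 triglyceride synthesis genes (red, bars are SE). Dgat2 lies in the upper left, at 0.37 in sh-PRDM16 cells and -1.24 in sh-scr cells, and Agpat3, Dgat1 and Lpin1 lie at upper right, near the dashed line of equal change.

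The 5 genes named here had the pattern most like that of Dgat2 over the 8 arrays, by Pearson's r of log2 values among 1246 genes whose group means spanned at least 1 on the log2 scale. They were Slc22a4 (r = 0.975), a transporter of organic cations, Wnk4 (0.974), a kinase that regulates ion transport, Ahdc1 (0.943), Wfdc12 (0.928) and Apcdd1 (0.922), an inhibitor of Wnt signalling. On centred arrays their r ranged from 0.874 to 0.958. The points share their groups, so r mostly describes the order of the 4 group means. Wnk4 had a mean intensity of 60.7 on treated and 44.1 on untreated sh-PRDM16 arrays, and 23.4 on treated and 98.5 on untreated sh-scr arrays. Apcdd1 had means of 888.6 on treated and 796.5 on untreated sh-PRDM16 arrays, and 447.2 on treated and 1179.6 on untreated sh-scr arrays.

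**Figure D4:**
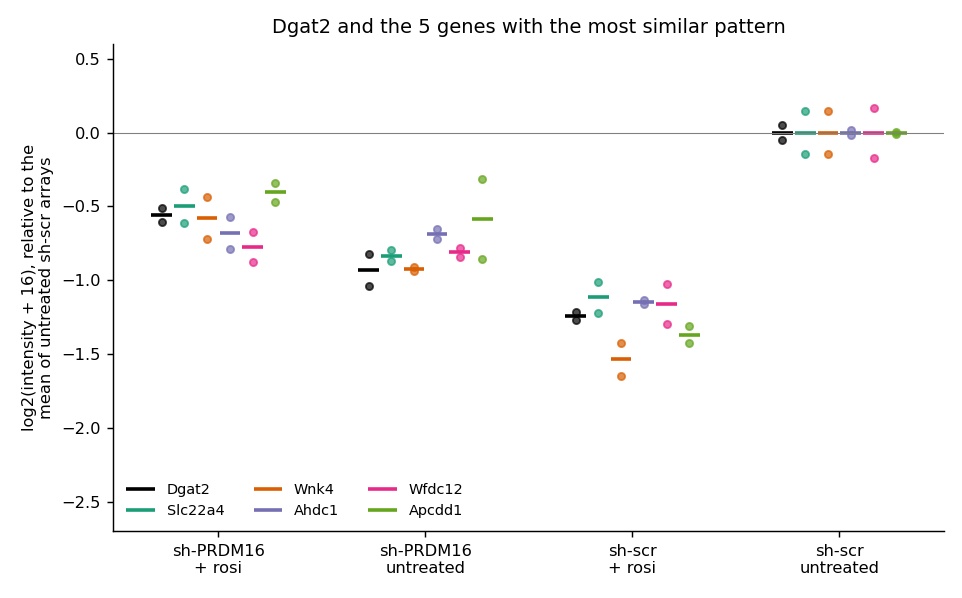
log2(intensity + 16) of Dgat2 and the 5 genes most like it, relative to each gene's mean on the untreated sh-scr arrays, with arrays as points and group means as bars. All 6 genes are lowest on the treated sh-scr arrays and highest on the untreated sh-scr arrays, a likeness by which the 5 were chosen.

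Genes around this pathway were described by list, to be read against all genes. Counts are of the listed genes that were tested. Others lacked a probe set of their own, among them Acsl1, Acsl3, Plin1 and Gpat3, or did not pass the filter. With rosiglitazone 10.1% of all genes rose in sh-PRDM16 cells, with a median change of 0.0026. In sh-scr cells the shares were 5.2% higher and 32.2% lower, and the median was -0.31. In sh-PRDM16 relative to sh-scr cells 4.62% fell with rosiglitazone (median 0.15) and 15.5% without it (median -0.16). Where a gene's group mean lay below the 16 added before the log, that value sets the size of a log2 change, and means are given in its place.

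The 5 genes listed around glycerol 3-phosphate do not all supply it. Of these 5, 3 rose with rosiglitazone in each line, with 3 in sh-PRDM16 and 5 in sh-scr cells on centred arrays. Gpd1, which makes glycerol 3-phosphate, changed by 2.26 in sh-PRDM16 and 1.12 in sh-scr cells, and Aqp7, a glycerol channel, by 1.63 and 0.96. Pck1, a glyceroneogenic enzyme, averaged 31.55 on treated and 14.5 on untreated sh-PRDM16 arrays, a rise that did not pass on centred arrays (adjusted p = 0.061), where Tpi1 passed instead. In sh-scr cells Pck1 rose by 0.97. In sh-PRDM16 relative to sh-scr cells 3 of the 5 fell with rosiglitazone, Pck1 (-1.87), Gpd2 (-0.91) and Gpd1 (-0.87), and all 5 fell without it, with Gpd1 at -2.01. On centred arrays the counts turned to 5 with rosiglitazone and 4 without it, where Tpi1 did not pass. The list's median between the lines was -0.87 with and -1.04 without rosiglitazone.

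Of 6 genes that activate or import fatty acids, rosiglitazone raised Slc27a1, a fatty acid transport protein, in both lines (2.43 in sh-PRDM16 and 1.71 in sh-scr cells), and also Slc27a4 in sh-PRDM16 cells (0.63). The list's median was 0.20 in sh-PRDM16 and -0.037 in sh-scr cells. Acsl6 fell in sh-scr cells (-0.68) but did not pass on centred arrays (-0.39, adjusted p = 0.082), where Slc27a4 rose (0.45, adjusted p = 0.011). Slc27a1 was lower in sh-PRDM16 than in sh-scr cells with rosiglitazone (-0.77) and without it (-1.48), and Acsl4 was higher with it (0.61), with list medians of 0.30 and -0.16.

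Of 13 genes of fatty acid synthesis, 7 rose with rosiglitazone in sh-PRDM16 cells (9 on centred arrays), with a list median of 0.68. Me1, the malic enzyme, was among those that rose in these cells (1.28). Acacb, an acetyl-CoA carboxylase, also rose there and averaged 141.65 on treated and 3.25 on untreated arrays. In sh-scr cells the rises were those of Acacb (2.57) and Me1 (0.43), and 2 genes fell, Fasn, the fatty acid synthase (-0.63), and Elovl6 (-0.48), with a median of -0.10. On centred arrays 5 rose and 1 fell there, and Elovl6 did not pass. Relative to sh-scr cells, 4 of 13 fell in sh-PRDM16 cells with rosiglitazone (median -0.35, with 6 on centred arrays) and 11 without it (median -1.17). Thrsp, a lipogenic nuclear protein, was at -2.12 with and -2.77 without rosiglitazone, and Acss2, an acetyl-CoA synthetase, at -1.48 and -1.90.

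Among 21 other genes of glycerolipid synthesis, mostly of phospholipids, 4 rose with rosiglitazone in sh-PRDM16 cells (median 0.031), led by Chpt1 (1.37) and Pcyt2 (1.20). In sh-scr cells Chkb, a choline kinase, was the 1 that rose (1.03) and 5 fell (median -0.13), against 7 and 1 on centred arrays. Between the lines, sh-PRDM16 over sh-scr gave 1 rise and 2 falls with rosiglitazone (median 0.094, with 2 and 6 on centred arrays). Without it there were 6 falls (median -0.25).

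Of 9 genes of triglyceride breakdown, 8 rose with rosiglitazone in sh-PRDM16 cells, with a list median of 1.52, while sh-scr cells had 7 that rose and 1 that fell, with a median of 0.86. Pnpla2, the adipose triglyceride lipase, rose by 1.84 in sh-PRDM16 and 0.89 in sh-scr cells, and Mgll, the monoacylglycerol lipase, by 1.74 and 0.86. Ces1d (2.71 and 2.24) and Ces1f are carboxylesterases with close paralogs that can share hybridization. Ces1f averaged 248.3 on treated and 14.5 on untreated sh-PRDM16 arrays, and rose by 1.82 in sh-scr cells. Pnpla3 fell in sh-scr cells (-1.17). In sh-PRDM16 relative to sh-scr cells, 3 of 9 fell with rosiglitazone (median -0.34, with 7 on centred arrays) and 8 without it (median -1.12).

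Of 7 lipid droplet genes, 4 rose in each line, with list medians of 1.40 in sh-PRDM16 and 0.57 in sh-scr cells. On centred arrays 6 rose in sh-PRDM16 cells. Cidec rose by 3.79 in sh-PRDM16 and 2.55 in sh-scr cells, Plin5 by 2.42 and 1.91 and Plin2 by 1.40 and 0.57. Cidea, the other gene that rose on the deposited scale, averaged 32.45 on treated and 1.95 on untreated sh-PRDM16 arrays. It averaged 547.55 on treated and 19.1 on untreated sh-scr arrays. In sh-PRDM16 relative to sh-scr cells, 3 fell with rosiglitazone (median -0.19, with 6 on centred arrays) and 6 without it (median -0.95). The response differed between the lines for Cidec (1.24, adjusted p = 0.0331), but not on centred arrays (0.93, adjusted p = 0.0606). Cidea also passed that test, in the lower direction, in which 0.0646% of all genes passed, but nothing is read from it because its untreated sh-PRDM16 mean was below 16. No gene of the other 5 lists passed that test in limma. In these lists of 5 to 21 genes, 2 to 10 had an unadjusted p under 0.05, as did 2365 of all 9294 genes.

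**Figure D5:**
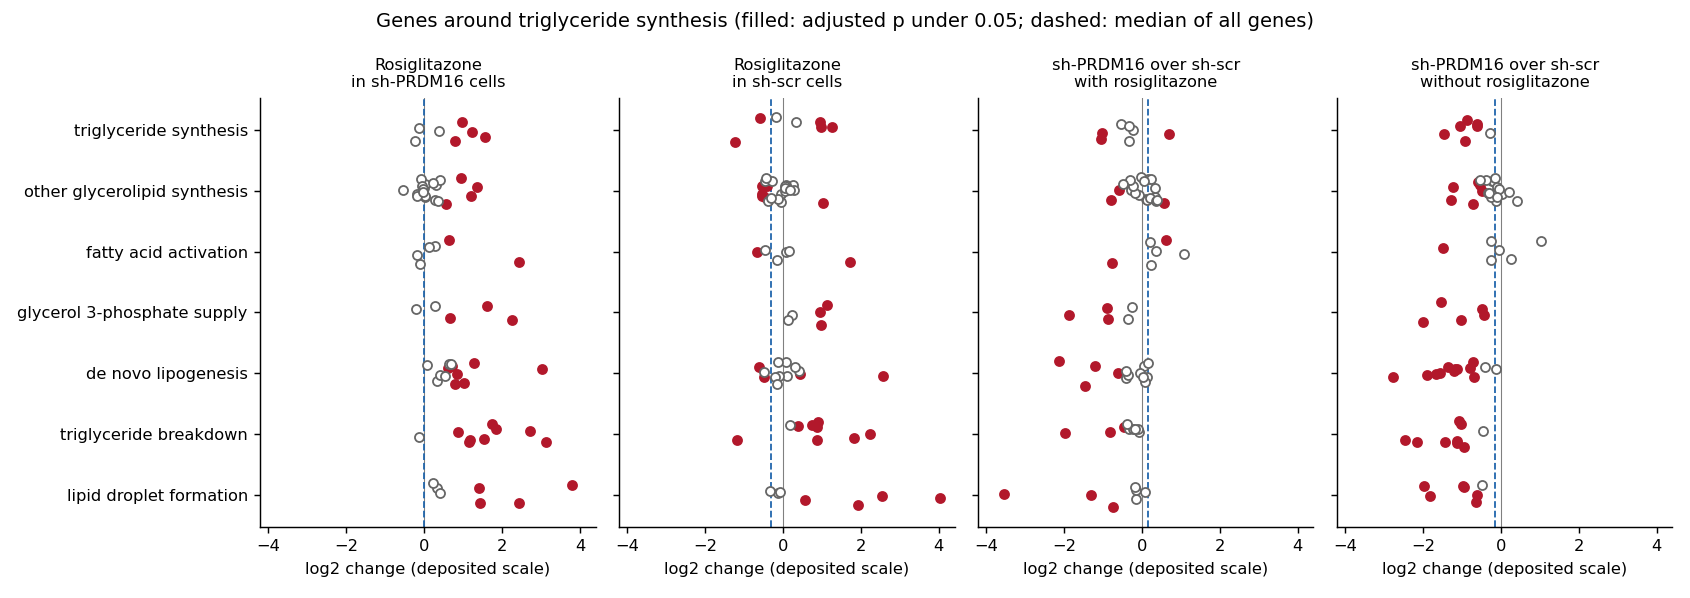
Log2 change on the deposited scale of each gene in the triglyceride synthesis set and 6 surrounding lists, in 4 comparisons (filled points have an adjusted p under 0.05, dashed lines are medians of all genes). The breakdown and lipid droplet lists lie mostly right of the dashed line with rosiglitazone. Without it, 8 of 9 genes of the breakdown list, which includes the regulator G0s2, fell in sh-PRDM16 relative to sh-scr cells.

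Marker lists showed that the lines differed in more than these genes. Of the adipocyte markers, Fabp4 read 16409.9 or more and Adipoq 9965.3 or more on every array, while Lep ranged from 2.8 to 462.8. With rosiglitazone, Lep and Retn fell in both lines, 2 of 10 (3.31% of all genes in sh-PRDM16 and 32.2% in sh-scr cells). Rises numbered 2 in sh-PRDM16 cells (10.1% of all genes) and 1 in sh-scr cells (5.2%). On centred arrays Lep and Retn again fell in both lines (9.87% and 11.9% of all genes), while 5 and 2 rose (14.5% and 14.2%). The summed level of 10 adipocyte markers was 63425 to 68205 on treated and 47412 to 54220 on untreated sh-PRDM16 arrays, and 69618 to 74134 on treated and 75695 to 77143 on untreated sh-scr arrays. This sum and the marker sums below add linear deposited values without centring. They therefore carry the differences in array level and mostly follow the brightest genes, such as Fabp4 here and Col3a1 among the fibroblast markers. In sh-PRDM16 relative to sh-scr cells, 8 of the 10 fell without rosiglitazone (15.5% of all genes), among them Pparg (-0.99) and Cebpa (-1.01). With rosiglitazone 3 fell (4.62% of all genes). On centred arrays 7 fell with it (12.3% of all genes), Pparg (-0.43) and Cebpa (-0.40) among them. In bulk samples, fewer cells of a type and less RNA per cell cannot be told apart. Macrophage and leukocyte markers, 12 genes, summed to 884 to 912 on treated and 1120 to 1168 on untreated sh-PRDM16 arrays, and 3682 to 3710 on treated and 5725 to 6243 on untreated sh-scr arrays. Of 11 tested, 10 fell in sh-PRDM16 relative to sh-scr cells with rosiglitazone (4.62% of all genes) and 9 without it (15.5% of all genes). Itgam stayed at or below 11 on every array, while Csf1r read 460.1 to 808.6 and Lyz2 121.3 to 3308.3. Preadipocyte and fibroblast markers, 10 genes, summed to 44512 to 46185 on treated and 49790 to 56490 on untreated sh-PRDM16 arrays, and 37518 to 39610 on treated and 53228 to 54190 on untreated sh-scr arrays. Endothelial markers, 9 genes, summed to at most 1127 on any array, with Vwf at or below 2.2, Emcn from 108 to 332.2 and Eng from 186.2 to 296.8. Of the muscle and pericyte markers, the skeletal muscle genes Myod1, Myog and Ckm stayed at or below 26.7, and Acta2 and Tagln, which cultured stromal cells also express, were at 5949 or more. The part of these markers in the results for the triglyceride synthesis genes was not tested.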

How the data were processed

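RNA of 8 samples was measured on Affymetrix mouse 430A_2 arrays. Per the labels' protocols, RNA extracted with Trizol was labelled as biotinylated cRNA by in vitro transcription from an oligo-dT primer. The deposited intensity values are linear, from 0.1 to 22736; how they were summarized or scaled is not given in the sources used here. Samples were grouped by their titles. The number of arrays, 2 per group, limits the precision.

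Gene names came from the platform annotation (20380 probe sets with 1 gene, 691 with several, 1555 not listed, 64 controls); 12369 of 12393 genes matched RefSeq by Entrez ID. A gene was read from its probe set with the highest mean, and the lowest 25% of genes were left out. log2(intensity + 16) was fitted with limma 3.58.1 (R 4.3.3), a mean per group over all 8 arrays, two-sided, with Benjamini-Hochberg adjustment over 9294 genes and a threshold of 0.05. The fit was run on simulated data with independent noise, a small part of the genes changed in the treated sh-scr group and no array-wide shift. That setting is simpler than these data, so the run does not cover shifts in level such as those described above.

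The genes and lists were chosen with earlier results of these data known. Named are all 8 genes of the set, up to 4 genes per list with the largest change past the threshold, adipocyte markers, and the 5 genes most correlated with Dgat2; other markers and list genes named were chosen after their values were seen. Alternatives were median centring, quantile normalization, no filter and a 50% filter, the mean of a gene's probe sets, each probe set alone, pseudocounts of 1 and 64, a trended variance prior, the replicate block, a fit of the compared groups alone, and leaving out each array. Same-numbered arrays did not deviate together (r from -0.022 to 0.053), so numbers were not taken as pairs.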

Additional observations from a re-analysis of the deposited data

Results flagged for a closer look

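The rosiglitazone response of Dgat2 differed between the lines by a test of the difference itself: 1.61 on the log2 scale (SE 0.19, limma adjusted p = 0.00943), sh-PRDM16 minus sh-scr. The responses were 0.37 in sh-PRDM16 cells and -1.24 in sh-scr cells, and on centred arrays 0.35 and -0.95. Over the alternatives the difference ranged from 1.28 to 1.72.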

How the results depend on the processing

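With 2 arrays per group, leaving one out leaves a lone array that is assumed to vary like the other groups. Of the 7 genes, those past the threshold numbered 6 for sh-PRDM16 over sh-scr without rosiglitazone, with 3 to 6 when 1 array was left out (3 without untreated sh-scr replicate 2, where Gpam, Agpat3 and Dgat1 did not pass). With rosiglitazone they numbered 3, against 7 on median-centred arrays, 7 after quantile normalization and 5 with a trended variance prior (2 to 3 when 1 array was left out). For rosiglitazone they numbered 4 in sh-PRDM16 cells (3 to 4) and 5 in sh-scr cells (4 to 5). For the difference of the responses limma called 1, Dgat2, against 0 without a filter (unadjusted p under 0.05 for 1 gene) and 0 when untreated sh-PRDM16 replicate 2 was left out (unadjusted p under 0.05 for 2 genes), so 0 to 1 when 1 array was left out. Some changes that did not pass turned sign. For rosiglitazone in sh-scr cells Lpin2 was at 0.10 on centred and 0.13 on quantile-normalized arrays. For rosiglitazone in sh-PRDM16 cells Gpam was at 0.0020 and Lpin2 at 0.035 with the mean of all probe sets. For the difference of the responses, centred and quantile-normalized arrays gave -0.018 and -0.021 for Agpat3, -0.26 and -0.30 for Lpin2, and -0.025 and -0.014 for Dgat1. There Lpin1 was at 0.0078 with a pseudocount of 1 and between -0.16 and 0.15 when 1 array was left out. The cause was not tested.

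With the replicate block, the counts stayed at 4, 5, 3, 6 and 1 of the 7 genes for rosiglitazone in sh-PRDM16 and sh-scr cells, sh-PRDM16 over sh-scr with and without rosiglitazone, and the difference of the responses, and Dgat2 kept its difference of 1.61 (adjusted p = 0.00819). Over all genes, the difference of the responses was called for 62 genes, against 5 on centred and 5 on quantile-normalized arrays, 0 without a filter (2402 at an unadjusted p under 0.05), 1037 with the lower 50% left out, 24 probe sets, 13 and 800 with pseudocounts of 1 and 64, 1297 with a trended prior, and 0 to 73 when 1 array was left out. Counts over all genes also moved by over 1.5 times for rosiglitazone in sh-PRDM16 cells, at 1245 against 2264 centred, 2486 quantile and 2005 trended (641 to 1166 when 1 array was left out), and for sh-PRDM16 over sh-scr with rosiglitazone, at 1410 against 2287 centred, 2327 quantile, 803 without a filter, 2409 with a pseudocount of 64 and 2609 trended (492 to 1804). For rosiglitazone in sh-scr cells, 3474 genes became 1084 to 3943, and for sh-PRDM16 over sh-scr without rosiglitazone, 1624 became 665 to 1747 when 1 array was left out.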
